A study of Mus musculus with 18 samples.

Results

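The proteasome genes described here are the mouse genes whose symbol reads Psm, then a letter from a to g, then a number, on Affymetrix mouse expression arrays hybridised with lung RNA. The rule found 47 of the 18193 genes that had a probe set annotated to that gene alone, and each gene was represented by its probe set with the highest mean over 18 arrays. Of these, 45 passed the filter on low signal and were tested among 13434 genes; the 2 others were Psma8, the alpha subunit of testis, and Psmb11, the beta subunit of the thymus. Psme2, a subunit of the interferon-induced activator, shares its probe set with Psme2b and was not analysed here. The rule reads symbols and no values, but it was chosen with earlier results of these data known.

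Female B6C3F1 mice, 3 per group and 1 animal per array, were exposed for 13 weeks from 5 weeks of age, and the right lung lobe was taken at 18 weeks. Mice in the NDA group received 1,5-naphthalenediamine at 2000 ppm in feed, those in the NEDD group N-(1-naphthyl)ethylenediamine dihydrochloride at 2000 ppm in feed, and those in the PCNB group pentachloronitrobenzene at 8187 ppm in feed, each on 7 days a week, against a feed control on rodent chow. Mice in the benzofuran group received 2,3-benzofuran at 240 mg/kg by gavage on 5 days a week, against a corn oil control given the vehicle at 5 ml/kg. The design text classes NDA and benzofuran as positive and NEDD and PCNB as negative lung carcinogens, so the comparisons ask how lung transcripts differ under treatments of either class. Each compound was given at 1 dose and 1 duration, and the vehicles differ between the feed and gavage arms. The arrays are named below by group and animal number.

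The proteasome is the protease that degrades ubiquitin-tagged proteins. Its core particle stacks rings of alpha and beta subunits, and the beta subunits Psmb5, Psmb6 and Psmb7 carry the active sites; in immune cells and under interferon, Psmb8, Psmb9 and Psmb10 take their places and shift the peptides made for MHC class I. The regulatory particle unfolds substrates with a ring of ATPases and holds the receptors and deubiquitinase that handle the ubiquitin tag, while dedicated chaperones assemble both particles. Transcription of the constitutive subunits is known to be raised by NFE2L1 when proteasome capacity falls, and by NRF2 in some oxidative settings, which is why antioxidant genes are set beside them here.

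Promoter windows of RefSeq genes (GRCm38.p6, from 250 bases before to 50 after the annotated start, 300 bases long) are shown for Psmb5, Psmb8 and Psmg1, the catalytic subunit with the smallest p under NDA, its immune counterpart, and the assembly chaperone with the smallest p under benzofuran. Capitals mark the match to a searched motif, which is TGACNNNGC, the core of the antioxidant response element, for Psmb5, and TTCNNNGAA, the palindrome of gamma-activated sites, for Psmb8 and Psmg1. The windows lie at chr14:54617946-54618245 on the minus strand for Psmb5, chr17:34197945-34198244 on the plus strand for Psmb8 and chr16:95990911-95991210 on the minus strand for Psmg1.
Psmb5: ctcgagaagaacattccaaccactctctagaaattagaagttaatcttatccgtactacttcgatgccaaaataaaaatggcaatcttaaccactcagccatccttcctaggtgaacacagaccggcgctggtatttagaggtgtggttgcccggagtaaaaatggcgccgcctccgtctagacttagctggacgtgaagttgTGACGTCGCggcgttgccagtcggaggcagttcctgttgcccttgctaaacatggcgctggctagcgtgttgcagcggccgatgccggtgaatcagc
Psmb8: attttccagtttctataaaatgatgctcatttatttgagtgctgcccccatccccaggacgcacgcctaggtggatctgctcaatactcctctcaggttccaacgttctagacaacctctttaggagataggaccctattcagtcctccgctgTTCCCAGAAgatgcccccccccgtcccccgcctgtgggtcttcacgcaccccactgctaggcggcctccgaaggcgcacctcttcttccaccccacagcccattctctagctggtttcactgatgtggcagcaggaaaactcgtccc
Psmg1: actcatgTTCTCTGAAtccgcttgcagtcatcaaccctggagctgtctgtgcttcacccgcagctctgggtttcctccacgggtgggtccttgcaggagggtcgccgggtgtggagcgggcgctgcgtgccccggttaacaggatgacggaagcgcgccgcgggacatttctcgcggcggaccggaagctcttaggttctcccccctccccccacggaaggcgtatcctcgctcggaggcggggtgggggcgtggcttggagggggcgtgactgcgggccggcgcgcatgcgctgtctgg
A window was given for 39 of the 47 genes, with 41 windows in all. A proteasome gene was counted if any of its windows held a match, while the share over all genes is per window. Both strands were searched. TGACNNNGC was found in 6 of the 39 (Psmb5, Psmb6, Psmc6, Psmd12, Psmd9 and Psme4), or 15.4%, against 12.4% of 32851 windows of all genes. TTCNNNGAA was found in 3 (Psmb8, Psmd2 and Psmg1), or 7.69%, against 8.3% of all windows, and the core repeat of the interferon-stimulated response element in 5 (Psmb3, Psmd4, Psmd9, Psme1 and Psmg4), or 12.8%, against 3.44%. The window of Psmb9, another immunoproteasome subunit, held 0 matches to the searched motifs. A match describes the letters in the window and no factor's binding.

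Array medians lay between 5.755 and 5.803, except for 5.678 on array benzofuran 10. Lung epithelial markers were high, with Sftpc, the surfactant protein of alveolar type II cells, averaging between 14.55 and 14.60 in every group. Array benzofuran 10 stood apart from the rest. Its score on the first principal component was 46.6, against -11.8 to 7.8 on the other arrays, and its actin 3′ minus 5′ signal was 0.91, against 0.33 to 0.73. It held the highest signal of all 18 arrays for 37 of the 45 tested proteasome genes and for 35.3% of all tested genes, and the main benzofuran values are given with and without it. The actin 3′ minus 5′ signal of NDA and NEDD arrays did not overlap that of the feed control, at 0.33 to 0.43 on NDA arrays and 0.35 to 0.53 on NEDD arrays, against 0.58 to 0.73 on feed control arrays; PCNB arrays had 0.35 to 0.58. Marker signal of B and plasma cells moved with NDA: summed over 6 measured markers, Ighm and Jchain the brightest, it was 11227 to 23362 on NDA arrays against 1344 to 2618 on feed control arrays, and 3 of the 6 rose by the test. Summed signal of 10 lung epithelial markers was 109062 to 115608 on NDA arrays against 120191 to 124716 on feed control arrays. For 3 lung endothelial markers it was 6910 to 7167 with NDA and 7802 to 8676 with NEDD, against 7191 to 7741 in the feed control. The median deviation of these 3 from their 18-array means was -0.50 on array benzofuran 10. The 6 measured markers of T and NK cells summed to 1115 to 1418 with NDA and 2127 to 2233 with PCNB, against 1637 to 1994 in the feed control, and 0 of the 6 were called in either comparison. Summed signal of 5 neutrophil markers was 5201 to 6255 with NDA and 4989 to 6333 with NEDD, against 6838 to 8356 in the feed control, and 2805 to 4892 with benzofuran, against 4917 to 6215 in the corn oil control, with 0 of the 5 called. Their part in the values below was not tested. In whole lung, fewer cells of a type and less RNA per cell cannot be told apart.

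No proteasome gene passed the test in any comparison of a treatment with its own control. Each gene's group means were compared with limma over all 13434 genes at a Benjamini-Hochberg adjusted p under 0.05, with the spread pooled over the 6 groups. With NDA, 0 of 45 were called while 1.37% of all genes were, and at an unadjusted p under 0.05 there were 4 higher (8.89%, against 5.1% of all genes) and 0 lower (against 5.19%). With NEDD, 0 of 45 were called against 0.0223% of all genes, with 1 higher (2.22%, against 4.21%) and 2 lower (4.44%, against 5.23%) at the unadjusted level. With PCNB, 0 of 45 were called against 0.0149% of all genes, and 0 were higher (against 1.71%) or lower (against 1.26%) at the unadjusted level. With benzofuran, 0 of 45 were called against 1.73% of all genes, with 12 higher (26.7%, against 15.1%) and 0 lower (against 4.38%) at the unadjusted level. Weighting arrays by their residual spread gave other counts of called proteasome genes, namely 4 with NDA, 1 with NEDD, 0 with PCNB and 5 with benzofuran, but 5.62%, 3.88%, 0.0149% and 8.55% of all genes were then called. The weights favoured 1 array in each of these groups. Array NDA 5 had 2.71 against 1.07 and 0.99, and NEDD 12 had 2.12 against 0.73 and 0.84. PCNB 18 had 1.76 against 1.35 and 0.51, and benzofuran 6 had 3.34 against 1.02 and 0.12. Single arrays also moved the benzofuran count, which was 8 without benzofuran 8 (7.85% of all genes), 2 without benzofuran 6 (2.23%), 2 without corn oil control 25 (2.35%) and 0 without benzofuran 10 (0.499%).

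The measured differences were small and their intervals were narrow enough to bound them. The median log2 fold change of the 45 genes was 0.02 with NDA, -0.06 with NEDD, -0.004 with PCNB and 0.16 with benzofuran, against -0.02, -0.02, -0.02 and 0.05 over all tested genes. The 95% confidence interval lay wholly within 1.5-fold in either direction for 43 of 45 genes with NDA, 42 with NEDD, 44 with PCNB and 36 with benzofuran. An interval of that width does not show that a gene was unaffected. Of the 45, 41 had a positive log2 fold change with benzofuran and 30 with NDA, but 12 with NEDD and 22 with PCNB; over all tested genes the positive share was 60.2% with benzofuran, 44.1% with NDA, 45.8% with NEDD and 43.6% with PCNB. These counts of signs moved with the processing: 35 were positive with benzofuran without array 10, 21 with NDA after median centring, and 39 with NDA, 28 with NEDD and 32 with PCNB when the actin 3′ minus 5′ signal was a covariate.

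**Figure D1:**
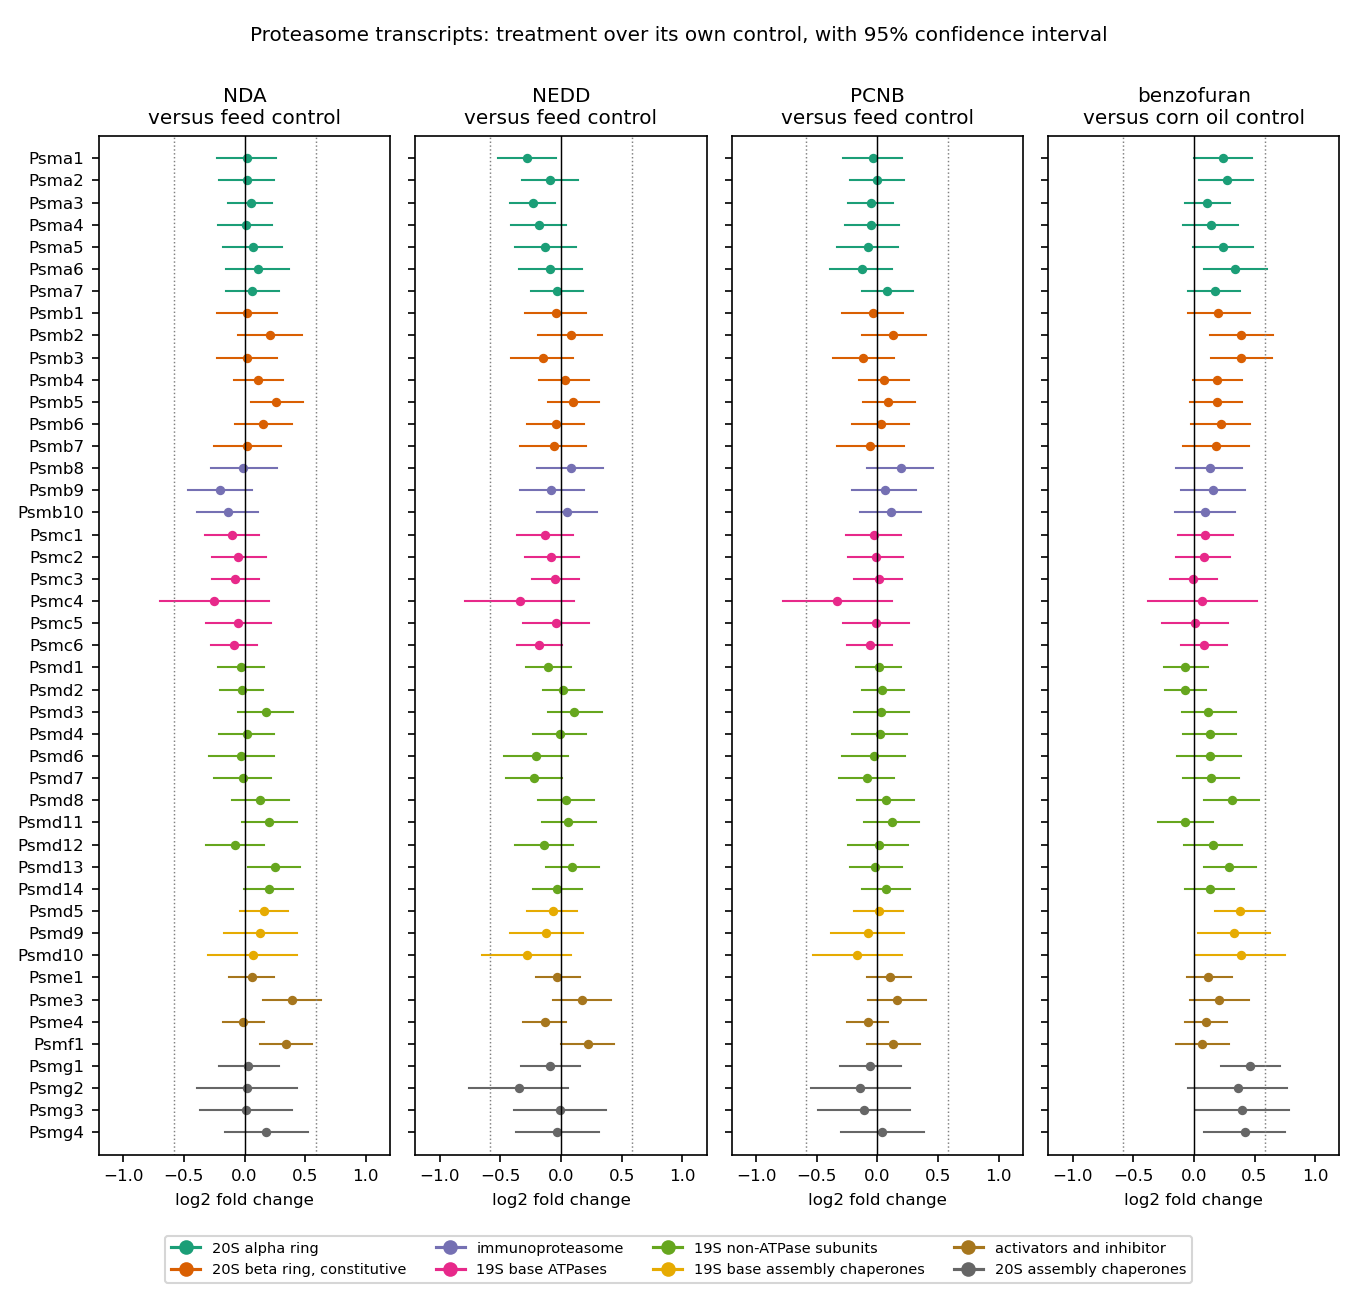
Log2 fold change of each of the 45 tested proteasome genes (rows, coloured by class) under each treatment over its own control, 3 arrays against 3. Bars are 95% confidence intervals and dotted lines mark 1.5-fold; most points with benzofuran lie right of 0, and the points of the other treatments lie on both sides of it.

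Among the alpha subunits, which form the outer rings and the gate of the core particle, the log2 fold changes were all positive and small with NDA (median 0.05, from 0.01 for Psma4 to 0.11 for Psma6), and all 7 were negative with NEDD (median -0.13, from -0.28 for Psma1 to -0.03 for Psma7). Psma1 measured 10.24, 10.51 and 10.16 on NEDD arrays against 10.57, 10.67 and 10.52 on feed control arrays. Psma3 measured 11.35, 11.60 and 11.45 on NEDD arrays against 11.68, 11.71 and 11.71 on feed control arrays. Every NEDD array lay below every control array for both genes, and array NEDD 14 was the nearest to the controls. The log2 fold changes were -0.28 ± 0.11 (SE) for Psma1 and -0.23 ± 0.09 for Psma3, with adjusted p of 0.495 and 0.494 in limma. In all, 8 of the 45 genes had NEDD arrays all below the controls, or 17.8%, against 12.1% of all tested genes. Psma3 was called lower when arrays were weighted (-0.28, adjusted p = 0.0421 in limma). With PCNB the alpha subunits had a median of -0.05, and with benzofuran one of 0.24, from 0.11 for Psma3 to 0.34 for Psma6, or 0.10 without array benzofuran 10.

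The 7 constitutive beta subunits had positive log2 fold changes with NDA, with a median of 0.11 and a highest value of 0.26 for Psmb5, the chymotrypsin-like active site. Psmb5 measured 10.72, 10.91 and 10.82 on NDA arrays, against 10.62, 10.51 and 10.52 on feed control arrays. All NDA arrays lay above all control arrays, and the difference of 0.26 ± 0.10 (SE; 95% interval 0.05 to 0.48) had an adjusted p of 0.322 in limma. It was called when arrays were weighted (0.28, adjusted p = 0.0309 in limma). Psmb5 measured 10.64, 10.66 and 10.64 with NEDD and 10.57, 10.62 and 10.74 with PCNB. The log2 fold changes over the feed control were 0.10 and 0.09. All NEDD arrays also lay above all control arrays, and PCNB arrays overlapped them. Psmb5 was the only 1 of the 45 genes with NEDD arrays all above the controls, or 2.22%, against 7.23% of all tested genes. With benzofuran it measured 10.59, 10.70 and 10.96, against 10.55, 10.47 and 10.67 in the corn oil control, groups that overlapped.

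Psmb6, the caspase-like active site, measured 10.61, 10.80 and 10.73 with NDA, 10.48, 10.51 and 10.55 with NEDD, 10.57, 10.55 and 10.63 with PCNB, and 10.69, 10.53 and 10.46 in the feed control. Psmb7, the trypsin-like active site, measured 11.40, 11.40 and 11.46 with NDA, 11.22, 11.38 and 11.40 with NEDD, 11.27, 11.33 and 11.43 with PCNB, and 11.54, 11.57 and 11.08 in the feed control. The feed control overlapped every treatment for both genes, and array feed control 29 was far below the other two for Psmb7. With benzofuran Psmb6 measured 10.61, 10.54 and 11.01, against 10.44, 10.46 and 10.60 in the corn oil control, and Psmb7 measured 11.34, 11.29 and 11.68, against 11.14, 11.24 and 11.39. The highest value of both came from array benzofuran 10. Without that array the median of the 7 beta subunits was 0.08, against 0.20 with it.

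The 3 immunoproteasome subunits, which interferon gamma is known to induce, were called under no treatment. With NDA the 3 log2 fold changes were negative, -0.01 for Psmb8, -0.20 for Psmb9 and -0.14 for Psmb10, while the 7 constitutive beta subunits were positive. Psmb9 measured 9.41, 9.14 and 9.10 with NDA, 9.35, 9.37 and 9.30 with NEDD, 9.65, 9.44 and 9.33 with PCNB, and 9.58, 9.41 and 9.27 in the feed control. Psmb10 measured 9.80, 9.91 and 9.73 with NDA, 10.00, 10.05 and 9.96 with NEDD, 10.14, 10.07 and 9.97 with PCNB, and 10.18, 9.84 and 9.84 in the feed control. Every NDA array lay below every NEDD and PCNB array for Psmb10, while NDA and feed control arrays overlapped for both genes. The 95% intervals for NDA over feed control were -0.47 to 0.06 for Psmb9 and -0.39 to 0.11 for Psmb10, and the difference of -0.19 for Psmb10 between NDA and NEDD was not called.

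Psmb8 measured 10.23, 10.26 and 10.20 with NDA, 10.24, 10.35 and 10.36 with NEDD, 10.46, 10.46 and 10.35 with PCNB, and 10.36, 10.30 and 10.05 in the feed control. The PCNB mean was the highest of the feed arm, but array PCNB 20 lay within the control range, and the log2 fold change was 0.19 ± 0.13 (SE; 95% interval -0.09 to 0.46). In the gavage arm Psmb8 measured 10.15, 10.38 and 10.63 with benzofuran, against 10.19, 10.05 and 10.54 in the corn oil control. Psmb9 measured 9.52, 9.46 and 9.83, against 9.44, 9.30 and 9.59, and Psmb10 measured 9.82, 9.99 and 10.25, against 9.90, 9.83 and 10.07. The groups overlapped for all 3 genes, and array benzofuran 10 was the highest each time. Without it the median of the 3 was 0.01, against 0.13 with it.

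**Figure D2:**
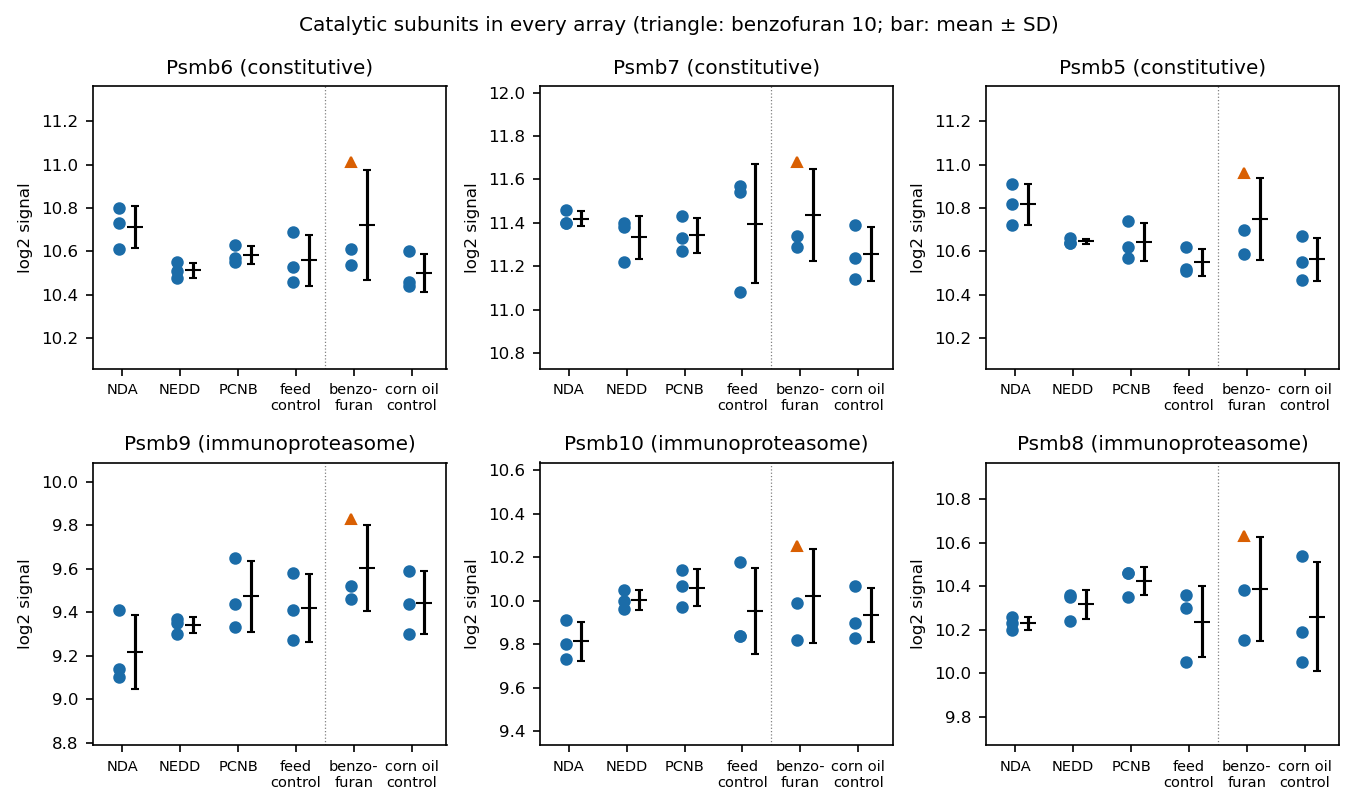
Log2 signal of the 3 constitutive catalytic subunits (top) and of the 3 immunoproteasome subunits that replace them (bottom) on every array, by group; bars are mean ± SD of 3 arrays, the triangle is benzofuran 10, and the dotted line parts the feed arm from the gavage arm. Levels cannot be compared between panels, since each is another probe set; the NDA arrays lie above the feed control for Psmb5 alone among the 6.

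The 6 ATPases of the regulatory particle, which unfold the substrate, had negative log2 fold changes with NDA (median -0.08) and with NEDD (median -0.10), and 5 of 6 were negative with PCNB (median -0.02). Psmc4 was the lowest under each. It measured 9.91, 9.77 and 9.73 with NDA, 9.71, 9.88 and 9.54 with NEDD, 9.98, 9.56 and 9.63 with PCNB, and 10.26, 9.97 and 9.93 in the feed control. NDA and NEDD arrays all lay below the control arrays, and array PCNB 16 did not. The log2 fold changes of Psmc4 were -0.25, -0.34 and -0.33, each with an SE of 0.21; the corn oil control spanned 9.29 to 10.20, the widest spread of the gene. Psmc6 measured 10.04, 10.22 and 10.18 with NEDD against 10.22, 10.40 and 10.34 in the feed control (-0.18 ± 0.09, SE). With benzofuran the ATPases had a median of 0.07, and of -0.07 without array 10.

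Among the 11 other subunits of the regulatory particle the medians were 0.02 with NDA, -0.01 with NEDD, 0.02 with PCNB and 0.13 with benzofuran, and 0.004 with benzofuran without array 10. Psmd14, the deubiquitinase of the lid, measured 10.39, 10.47 and 10.47 with NDA against 10.11, 10.28 and 10.34 in the feed control. Psmd13, a lid subunit, measured 9.33, 9.28 and 9.40 with NDA against 9.12, 9.12 and 9.04 in the feed control. All NDA arrays lay above all control arrays for both, at 0.20 ± 0.09 and 0.25 ± 0.10 (SE), with adjusted p of 0.489 and 0.39 in limma, and Psmd13 was called when arrays were weighted (0.26, adjusted p = 0.0467 in limma). Psmd7, the scaffold partner of Psmd14, measured 8.97, 9.34 and 8.91 with NEDD against 9.25, 9.38 and 9.25 in the feed control, where array NEDD 14 lay within the control range. Psmd13 measured 9.19, 9.24 and 9.36 with benzofuran against 8.89, 8.81 and 9.21 in the corn oil control, with overlap at array benzofuran 6 (0.29 ± 0.10, SE, adjusted p = 0.134 in limma).

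The activators and the inhibitor gave the 2 smallest p-values under NDA. Psme3, the subunit of the nuclear activator PA28 gamma, measured 8.38, 8.43 and 8.48 with NDA against 7.97, 8.19 and 7.96 in the feed control, which did not overlap. Its log2 fold change of 0.39 ± 0.11 (SE; 95% interval 0.15 to 0.63) had an adjusted p of 0.125 in limma. Psmf1, which binds the core particle and inhibits it in the test tube, measured 7.94, 8.19 and 8.03 with NDA against 7.86, 7.61 and 7.65 in the feed control, again without overlap, at 0.34 ± 0.10 (SE; 95% interval 0.13 to 0.56, adjusted p = 0.147 in limma). Both were called with NDA when arrays were weighted, at adjusted p of 0.0326 for Psme3 and 0.012 for Psmf1. In all, 8 of the 45 genes had NDA arrays all above the controls, or 17.8%, against 9.48% of all tested genes, and the other 6 were Psmb4, Psmb5, Psmd11, Psmd13, Psmd14 and Psmg4.

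Psmf1 measured 7.97, 7.85 and 7.96 with NEDD (0.22 ± 0.10, SE) and 7.70, 7.86 and 7.96 with PCNB (0.13 ± 0.10, SE), so that the feed control had the lowest mean of its arm. Over all its probe sets averaged, the log2 fold change of Psmf1 turned to -0.12 with NEDD and -0.05 with PCNB. Psme3 measured 8.15, 8.19 and 8.26 with PCNB (0.16 ± 0.11, SE). Psme1, the alpha subunit of the interferon-induced activator, measured 10.77, 10.87 and 10.85 with PCNB against 10.81, 10.71 and 10.68 in the feed control (0.10 ± 0.09, SE), and the groups overlapped. Psme4, the activator PA200, had a log2 fold change between -0.13 with NEDD and 0.10 with benzofuran.

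The assembly chaperones gave the largest values under benzofuran. Psmg1, which pairs with Psmg2 to guide alpha ring assembly, measured 8.54, 8.53 and 9.0 with benzofuran against 8.21, 8.18 and 8.29 in the corn oil control. All benzofuran arrays lay above all control arrays, and array 10 was the highest by far. The log2 fold change was 0.46 ± 0.12 (SE; 95% interval 0.22 to 0.71), with an adjusted p of 0.0539 in limma, and 0.31 ± 0.09 (adjusted p = 0.189 in limma) without array 10. Psmd5, a chaperone of the ATPase ring, measured 9.35, 9.21 and 9.54 with benzofuran against 8.93, 8.99 and 9.06 in the corn oil control. These groups did not overlap either, and the log2 fold change was 0.38 ± 0.10 (SE; 95% interval 0.17 to 0.58, adjusted p = 0.055 in limma), or 0.29 ± 0.09 (adjusted p = 0.195 in limma) without array 10. Both genes crossed the threshold under 6 alternatives that kept all arrays of both groups, among them weighted arrays and a median-centred scale. Neither crossed it under quantile normalization, without the filter on low signal, or with the compared groups alone. Neither crossed it when corn oil control 22, 24 or 25 was left out. Each has 1 probe set, so averaging probe sets did not change its values.

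For the other chaperones the log2 fold change was smaller still without array 10. Psmg2 measured 8.27, 8.17 and 9.06 with benzofuran against 8.34, 8.22 and 7.87 in the corn oil control, and Psmd10, known as gankyrin, measured 8.41, 8.29 and 9.17 against 8.23, 8.35 and 8.13. Arrays benzofuran 6 and 8 lay within or close to the control range for both, and array 10 was far above it. The log2 fold changes of 0.36 and 0.39 were 0.08 and 0.11 without array 10. Psmg3 and Psmg4, partners in a second chaperone pair, had 0.40 and 0.42 with all arrays, and 0.13 and 0.14 without array 10. The median of the 4 core particle chaperones was 0.41, or 0.13 without array 10, and that of the 3 chaperones of the ATPase ring was 0.38, or 0.14.

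The non-catalytic beta subunits Psmb2 and Psmb3 also had small p-values with benzofuran. Psmb3 measured 11.05, 10.79 and 11.21 with benzofuran against 10.50, 10.54 and 10.85 in the corn oil control, with overlap through array corn oil control 25. Psmb2 measured 10.12, 10.11 and 10.54 with benzofuran against 9.85, 9.77 and 9.98 in the corn oil control, without overlap. Both had a log2 fold change of 0.39 ± 0.12 (SE), with adjusted p of 0.0975 and 0.106 in limma, and 0.29 and 0.25 without array 10. In all, 5 of the 45 genes had benzofuran arrays all above the controls, or 11.1%, against 13.1% of all tested genes. Array 10 lay above all 3 controls for 42 of the 45, those 5 included.

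**Figure D3:**
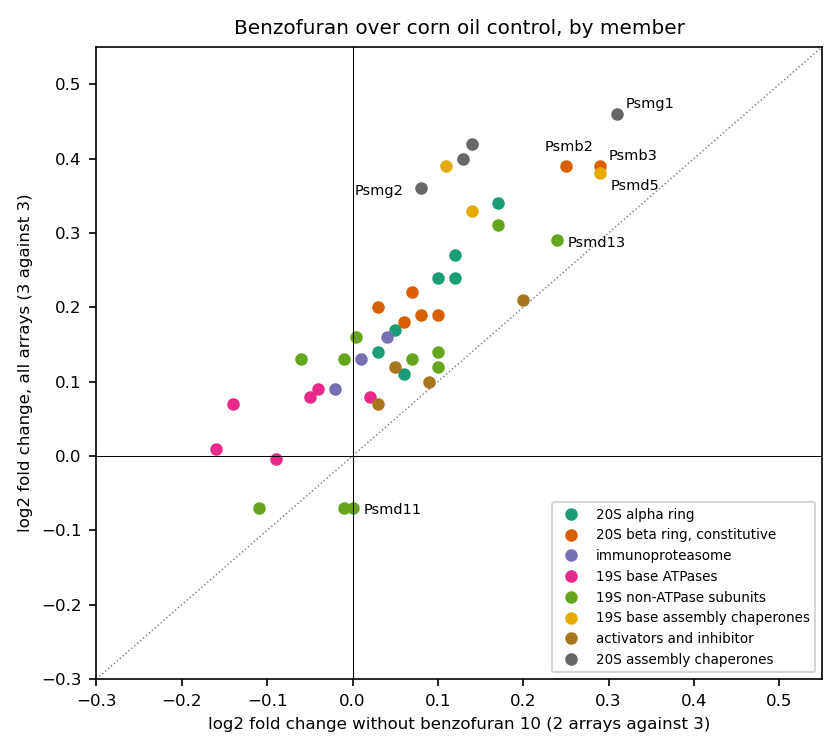
Log2 fold change of each tested proteasome gene with benzofuran over the corn oil control, with all 3 benzofuran arrays (vertical axis) and without benzofuran 10 (horizontal axis); points are coloured by class and the dotted line marks equal values. Nearly all points lie above the line, and the median of the 45 genes is 0.16 with array 10 and 0.07 without it, when 35 of 45 are positive.

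The classes did not stand equally high on array benzofuran 10. The median deviation of a class from the 18-array mean of its genes was 0.84 there for the core particle chaperones, 0.65 for the chaperones of the ATPase ring, 0.43 for the alpha and 0.41 for the constitutive beta subunits, 0.32 for the immunoproteasome subunits and for the ATPases, 0.21 for the other regulatory subunits and 0.15 for the activators and inhibitor, against 0.12 for all tested genes. Its RNA integrity number was 8.9, within the range of 8.3 to 9.4 of the arrays with a number. The part of its actin 3′ signal in these class values was not tested. With the actin 3′ minus 5′ signal as a covariate, the benzofuran median of the 45 genes was 0.14, against 0.16 without it. Of the 45, 40 were then positive, against 41.

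**Figure D4:**
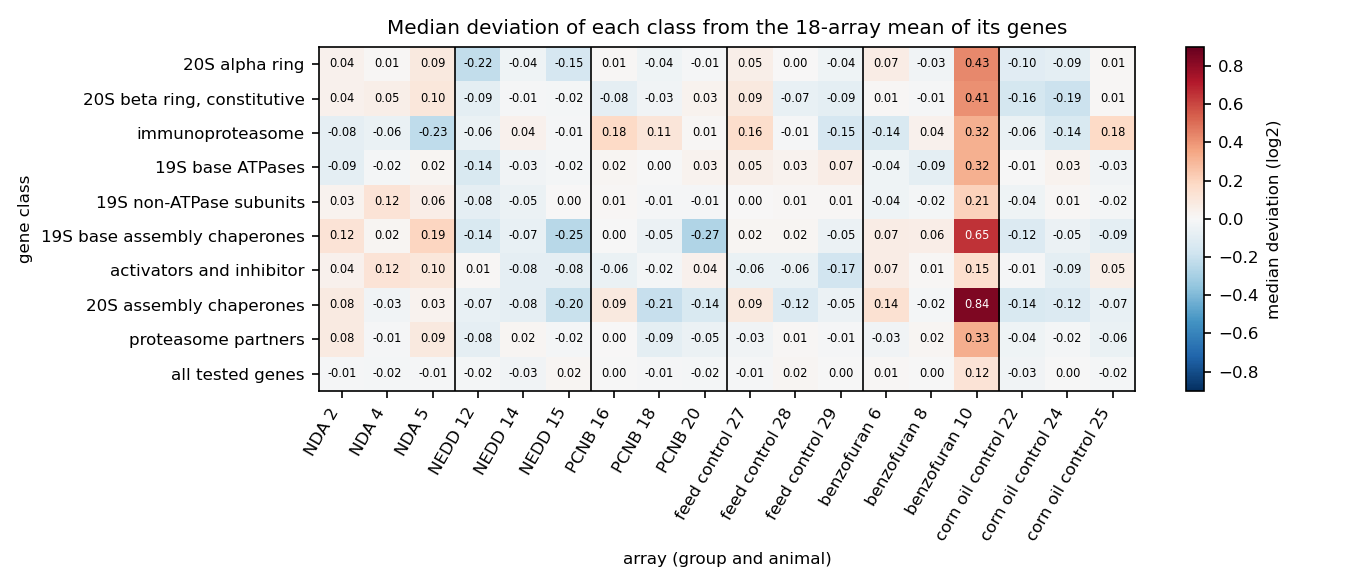
Median deviation (log2) of each proteasome class, of the partner proteins and of all tested genes from the mean of each gene over 18 arrays; columns are arrays, by group. Array benzofuran 10 is the reddest column, up to 0.84, and outside it no class passes 0.19 above or 0.27 below its mean.

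Between the treatments of the feed arm, NDA arrays stood above NEDD arrays for more proteasome genes than the share of all genes that did so. Both compounds carry amine nitrogens on a naphthalene ring and were given at the same dose in feed; in NEDD the nitrogen carries an aminoethyl chain. No proteasome gene was called between them by limma, against 2.12% of all genes, and at an unadjusted p under 0.05 there were 4 higher (8.89%, against 7% of all genes) and 0 lower (against 5.2%). Without overlap, 17 of 45 genes were higher with NDA, or 37.8%, against 13.2% of all tested genes, and 1 was lower, Psmb10, against 10.8%. The 17 included 5 of 7 alpha subunits, 4 of 7 constitutive beta subunits and all 3 chaperones of the ATPase ring. The 45 genes share the same 6 arrays, so the 17 are not independent observations.

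Psmd10 measured 8.46, 8.37 and 8.53 with NDA against 7.95, 8.33 and 8.03 with NEDD, and Psmg2 measured 8.27, 8.18 and 8.23 against 7.78, 8.05 and 7.74. NDA arrays were above for both genes, and array NEDD 14 was the nearest. The median log2 difference of NDA over NEDD was 0.12 for the 45 genes and -0.01 for all tested genes, with a range from -0.19 for Psmb10 to 0.37 for Psmg2, and the 95% interval lay within 1.5-fold for 43 of 45. When arrays were weighted, 10 of the 45 were called, against 13.5% of all genes.

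Effects were also compared between treatments, each taken over its own control. For the NDA effect minus the benzofuran effect, 0 of 45 genes were called by limma, against 0.29% of all genes, with 0 higher (against 2.05%) and 2 lower (4.44%, against 7.29%) at an unadjusted p under 0.05. The lowest values were -0.43 for Psmg1 and -0.39 for Psmg3, or -0.28 and -0.13 without array benzofuran 10, and the median was -0.16, or -0.02 without it. For the contrast of treatment classes, the averaged effect of NDA and benzofuran less that of NEDD and PCNB, 0 of 45 were called, against 3.49% of all genes. At an unadjusted p under 0.05 there were 13 higher (28.9%, against 13.3% of all genes) and 0 lower (against 5.55%), the highest value being 0.45 for Psmd10, or 0.31 without benzofuran 10. The median of the 45 was 0.15, or 0.10 without benzofuran 10. Without benzofuran 8 there were 6 called, against 6.46% of all genes, and 1 each without benzofuran 6 (3.8% of all genes) or corn oil control 25 (3.41%). The corn oil control differed from the feed control in 0 of 45 genes by limma, against 0% of all genes. At an unadjusted p under 0.05 there were 0 of 45 higher (against 1.06%) or lower (against 0.96%). The 45 values lay between -0.16 and 0.15, with a median of -0.06. Of the 45, 8 were positive (17.8%, against 41.7% of all genes), so the signs were uneven between the 2 undosed groups too.

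The genes known to share regulation or function with the proteasome were set beside these values. Of 9 tested NRF2 targets, all 9 rose with NDA by limma, with a median log2 fold change of 1.54. Nqo1, a quinone reductase, measured 9.27, 9.34 and 9.61 with NDA against 6.33, 6.38 and 6.22 in the feed control (3.10 ± 0.19, SE, adjusted p = 1.92e-08), and Txnrd1, thioredoxin reductase, rose by 1.54 and Gclm, of glutathione synthesis, by 1.47. The highest value of a proteasome gene with NDA was 0.39. With benzofuran 4 of 9 rose, led by Nqo1, which measured 8.45, 7.88 and 8.84 against 5.92, 6.46 and 6.34 in the corn oil control (2.15 ± 0.19, SE, adjusted p = 1.34e-05). Without array benzofuran 10 there were 3, since Txnrd1, at 0.48 with all arrays, had 0.46 and an adjusted p of 0.0513 in limma. With NEDD and PCNB 0 of 9 were called, with medians of 0.14 and 0.29. At an unadjusted p under 0.05, 0 and 4 of the 9 were higher, against 4.21% and 1.71% of all genes. The 8 measured regulators of NFE2L1 and NRF2 were called under no treatment; Mafk, a small Maf partner, had the smallest p with NEDD at 0.31 ± 0.11 (SE, adjusted p = 0.467 in limma), and Maff, another, with benzofuran at 0.30 ± 0.13 (SE, adjusted p = 0.223; 0.14 without array 10), the only ones at an unadjusted p under 0.05.

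Partners outside the symbol rule had medians close to those of the members. Of 12 listed, 10 had a probe set of their own and none was called by limma, with medians of 0.05 with NDA, -0.06 with NEDD, -0.03 with PCNB and 0.15 with benzofuran, or 0.05 without array benzofuran 10. At an unadjusted p under 0.05 there was 1, Txnl1, a thioredoxin-like protein of the regulatory particle, which measured 10.51, 10.36 and 10.87 with benzofuran against 10.26, 10.27 and 9.99 in the corn oil control (0.41 ± 0.12, SE, adjusted p = 0.0883). Benzofuran arrays lay above all controls for it, and without array 10 its log2 fold change was 0.26 (adjusted p = 0.346 in limma). Pomp, the maturation protein of the core particle, had 0.21 ± 0.13 with benzofuran, or 0.07 without array 10. Of 14 ubiquitin and shuttle genes, 7 had a probe set of their own and none was called by limma; the only one at an unadjusted p under 0.05 was Sqstm1, the autophagy receptor p62 and a known NRF2 target, with 11.67, 11.95 and 11.79 with NDA against 11.53, 11.48 and 11.37 in the feed control (0.34 ± 0.10, SE, adjusted p = 0.15).

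Genes of antigen presentation and interferon response were set beside the immunoproteasome. Of 11 measured genes of MHC class I presentation none was called by limma in the 4 comparisons of a treatment with its control, and all 11 were negative with benzofuran (median -0.11), beside a median of 0.13 for the 3 immunoproteasome subunits. Without array benzofuran 10 these medians were -0.05, with 10 of 11 negative, and 0.01. At an unadjusted p under 0.05 there were 0 higher and 1 lower with NDA, 0 and 3 with benzofuran, and 0 in either direction with NEDD and PCNB. Of all tested genes, 5.1% were higher and 5.19% lower with NDA, and 15.1% and 4.38% with benzofuran, where 60.2% were positive. Tap1, the peptide transporter that neighbours Psmb9, measured 7.21, 7.37 and 7.22 with benzofuran against 7.38, 7.60 and 7.53 in the corn oil control (-0.24 ± 0.10, SE, adjusted p = 0.222 in limma). Nlrc5, the transactivator of MHC class I genes, measured 6.57, 5.94 and 5.99 with NDA against 6.62, 6.74 and 6.71 in the feed control (-0.53 ± 0.16, SE, adjusted p = 0.15). Every NDA array lay below every control array. Of 15 tested interferon response genes, Gbp3, a guanylate-binding protein, fell with NDA (-0.64 ± 0.13, SE, adjusted p = 0.0113 in limma) and with benzofuran (-0.61 ± 0.13, SE, adjusted p = 0.021), and the other 14 were not called; the medians were -0.24 with NDA, -0.13 with NEDD, 0.19 with PCNB and -0.29 with benzofuran. Without array benzofuran 10 Gbp3 had -0.53 with benzofuran and was not called (adjusted p = 0.0995 in limma).

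**Figure D5:**
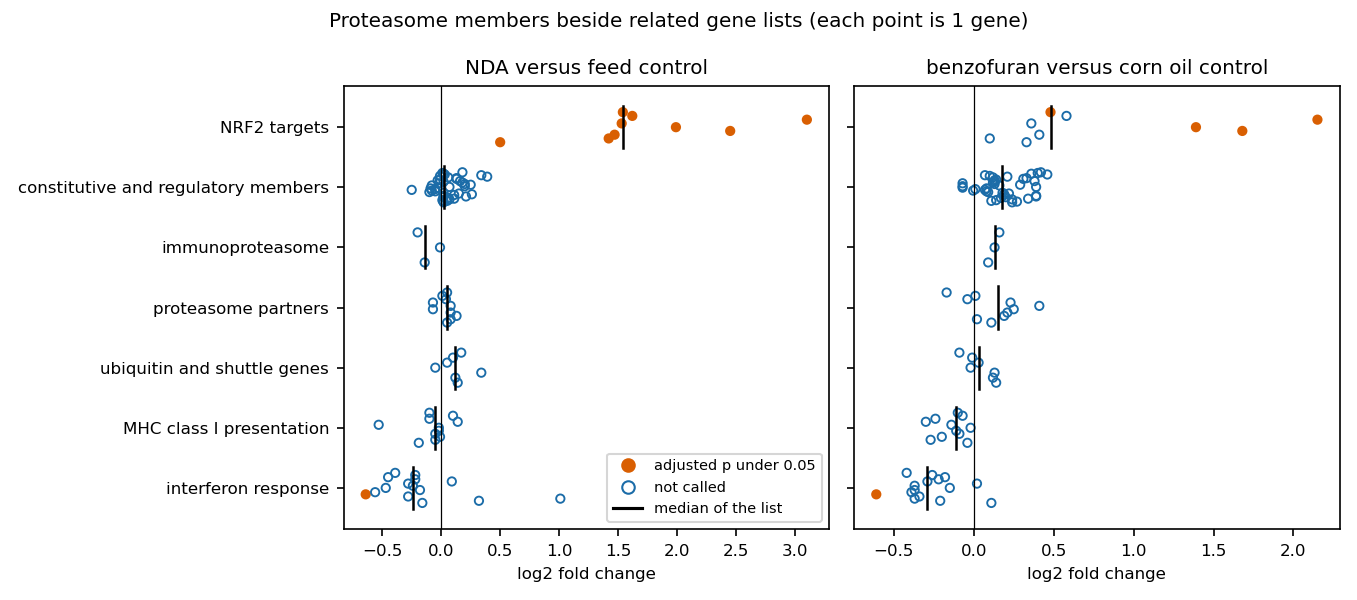
Log2 fold changes of the tested genes of each list with NDA over the feed control (left) and with benzofuran over the corn oil control (right); filled points passed an adjusted p under 0.05, open points did not, and the bar is the median of the list. All NRF2 targets are filled with NDA, 4 are filled with benzofuran, and no proteasome gene is filled.

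The choice of probe set mattered for single genes. The 45 tested genes and the 2 others had 100 probe sets between them; 26 genes had more than 1, which left 53 unused probe sets. Of these 53, 29 had the sign of the probe set used with NDA, 34 with NEDD, 28 with PCNB and 32 with benzofuran, and 40 did for NDA over NEDD. Their median was 0.0008 with NDA (27 positive), -0.09 with NEDD, -0.01 with PCNB and 0.03 with benzofuran. Over 35 of them it was 0.01, -0.10, -0.03 and 0.09 in the same order. Those 35 had a mean signal above the median of the arrays' 40th percentiles. Psmg1, Psmd5, Psmb2, Psmb5 and Psmd10 had 1 probe set each, so that no second measurement was at hand. Psme3 had 3 probe sets and Psmf1 had 4, and their values on each array come from 1 of them.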

How the data were processed

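Lung RNA (10 µg) was hybridised to 18 arrays, 1 per animal, per the labels. The authors deposited 1 table of values on a log2 scale for 45101 probe sets; base 2 was judged from their range of 2.48 to 14.78, and how it was summarised and normalized is not given in the sources used here. Values were kept as deposited, and arrays give no read depth, so that their number limits the precision. Gene names came from the platform annotation, where 34945 probe sets list 1 symbol, 932 several and 9160 none, beside 64 controls; several symbols or none named no gene. A gene was tested if its probe set lay above the 40th percentile of its array on at least 3 arrays. All 18 arrays entered 1 limma model (limma 3.58.1, R 4.3.3; 12 residual degrees of freedom) with a mean for each group, and two-sided p-values were adjusted by Benjamini-Hochberg across the 13434 genes, separately for 8 comparisons; an exact permutation test of 3 against 3 cannot go below 0.1. The scripts were tested on simulated data. Summaries were made in Python 3.11.15.

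Values on every array were given for the 6 catalytic and immunoproteasome subunits and, where fewer than 5 members were called, for the 5 members with the smallest p; other lists were named up to 4 genes per list and comparison, with any called gene besides, and other genes named here were chosen after their values were seen. The members and lists were chosen with earlier results of these data known. Alternatives were median centring, quantile normalization, the mean of a gene's probe sets, other filters and other variance estimates. Further ones were array weights, an actin covariate, the compared groups alone, and leaving out each array of those groups.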

Additional observations from a re-analysis of the deposited data

How the results depend on the processing

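The count of called proteasome genes was 0 in all 8 comparisons, and it stayed 0 under every alternative for PCNB, for corn oil over feed control and for the NDA effect minus the benzofuran effect. Array weights gave 4 called with NDA, 1 with NEDD, 5 with benzofuran, 10 for NDA over NEDD and 11 for the contrast of treatment classes, beside 5.62%, 3.88%, 8.55%, 13.5% and 13.9% of all genes in the same order. With benzofuran, median centring, the mean of probe sets, the filter at the array median, the intensity trend and the actin covariate each gave 2, Psmd5 and Psmg1; the class contrast gave 1, Psmd5, under each of these but median centring. Quantile normalization, no filter on low signal and the compared groups alone gave 0 with benzofuran. Leaving out single arrays of the groups compared gave 0 to 8 with benzofuran, 0 to 6 for the class contrast and 0 elsewhere. Array benzofuran 10 therefore stayed in the pooled spread of the feed comparisons. Fits on the compared groups alone, which held no benzofuran array, gave 0 called with NDA, NEDD and PCNB and for NDA over NEDD. Of all genes 2.11%, 0%, 0% and 3.77% were then called. The member median was 0.16 with NDA, 0.01 with NEDD and 0.05 with PCNB with the actin covariate, against 0.02, -0.06 and -0.004 without it, and -0.005 with NDA after median centring; that for the NDA effect minus the benzofuran effect was -0.04 with array weights and -0.01 with the actin covariate, and -0.20 to -0.02 when single arrays were left out; with benzofuran single arrays moved it between 0.07 and 0.23. The cause was not tested. No paired analysis was possible because no animal number occurs in more than 1 group. Some uncalled single genes changed sign: with NDA, Psmb7 (-0.002 with median centring, -0.13 to 0.11 without single arrays) and Psmb8 (0.02 with quantile normalization, 0.05 with the actin covariate, -0.10 to 0.05 without single arrays); with NEDD, Psmb6 (0.03 with the actin covariate, -0.10 to 0.02), Psmb8 (-0.04 with the mean of probe sets, -0.02 to 0.14), Psmb9 (0.0001 with the actin covariate, -0.15 to 0.003), Psmf1 (-0.12 with the mean of probe sets), Psmb7 (-0.22 to 0.03) and Psmb10 (-0.01 to 0.16); with PCNB, Psmf1 (-0.05 with the mean of probe sets), Psmb6 (-0.03 to 0.09), Psmb7 (-0.21 to 0.03) and Psmb9 (-0.03 to 0.14); with benzofuran, Psmb10 (-0.01 with array weights, -0.02 to 0.19). With 3 arrays a group the intervals, not the missed threshold, bound each difference.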
